A study of Mus musculus with 6 samples.

Results

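The 7 genes described here serve antigen presentation by major histocompatibility complex (MHC) class II in the mouse. They are H2-Aa, H2-Ab1 and H2-Eb1, which encode chains of the classical class II molecules, and Cd74, which encodes the invariant chain. The others are H2-DMa and H2-DMb1, which encode the peptide editor H2-M, and Ciita, which encodes the class II transactivator. All 7 genes were chosen by name from the 32285 genes of the deposited count matrix, in which each symbol stood in 1 row. Their RNA was counted in 17357 single cells of mouse cortex, which were sorted here into cell classes by other genes.

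MHC class II molecules show peptides from endocytosed proteins to CD4+ T lymphocytes. An alpha and a beta chain assemble in the endoplasmic reticulum around the invariant chain, which blocks the groove until endosomal proteases remove it, and H2-M then exchanges the fragment left behind for antigenic peptides. CIITA, itself bound to no DNA, drives these genes through factors that sit on paired boxes in their promoters. In the healthy brain class II is known mainly from dendritic cells and macrophages at its borders, whereas resting microglia carry little.

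The cells came from male mice aged 8 to 12 weeks that carried 1 copy of an RGS5::GFP reporter, so that in every group green fluorescent protein had taken the place of 1 allele of the pericyte gene Rgs5, on a C57bl/6 background. Permanent occlusion of the middle cerebral artery was followed by collection of cortex from the stroke side (IPSI) or of the matching contralateral area (Contra) at 1, 12 or 24 h, which gives 6 groups with 1 library each and no group without stroke. Live cells depleted of mature neurons were loaded on a droplet platform that counts the 3′ ends of transcripts by unique molecular identifiers (UMIs). The paper lists fewer mice for this sequencing than there are libraries, so some libraries share an animal. Counts of libraries with the same direction are therefore not counts of independent animals. The matrix numbers its libraries 1 to 6, and no source used here ties a number to a group. Values are therefore given over all cells and, for the main levels, by numbered library, with no statement on side or time and with no p-value, since cells are not replicates. Confidence intervals are exact 95% intervals and cover counting error only.

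Libraries 1 to 6 held 1221, 1405, 5873, 4216, 1906 and 2736 cells, and their median depth lay between 5053 and 5661 UMIs a cell. The classes were named from marker genes, with all class II genes kept out of the clustering. Microglia-like cells formed the largest class with 8126 cells, followed by 2804 oligodendrocyte-like, 2747 endothelial-like, 1169 astrocyte-like and 821 pericyte-like cells. The leukocyte-like classes of main interest were small: 325 monocyte-derived macrophage-like, 119 dendritic cell-like, 115 perivascular macrophage-like and 52 B lymphocyte-like cells. Dendritic cell-like cells carried all 8 of their markers, at a summed level of 1339 CPM (UMIs scaled to a total of 1000000 in the class), and microglia-like cells all 7 of theirs at 16703 CPM. The dendritic cell-like class also held 838 CPM of the monocyte-derived macrophage markers, with 1 of 7 absent, mostly Plac8 (421 CPM) and Ccr2 (342 CPM). Its NK cell markers summed to 253 CPM, and its Xcr1, a dendritic cell marker, rested on 5 UMIs. The 119 dendritic cell-like cells came mostly from library 6 (83 cells) and library 4 (23 cells), and the macrophage-like cells of the monocyte lineage likewise from library 6 (213 cells) and library 4 (107 cells). Among all cells, 26 barcodes occurred in more than 1 library, against 17.2 pairs by chance alone, and no cell was dropped for this.

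Of the 7 genes, H2-DMa, H2-DMb1, H2-Ab1, H2-Aa and H2-Eb1 lie in this order on chromosome 17 (GRCm38), from 34119541 to 34316674, and Ciita spans bases 10480059 to 10528418 of chromosome 16. H2-Aa is read from the minus strand and the others of chromosome 17 from the plus strand. The alpha chain gene of the class II molecule I-E, H2-Ea-ps, is annotated as a polymorphic pseudogene and is not in the matrix. H2-Eb1, which encodes the I-E beta chain, is therefore described as RNA, with no statement on an I-E molecule at the surface. H2-Eb1 overlaps an antisense gene, and H2-DMb1 has a close copy, H2-DMb2, so that reads of the copies may have been split or shared.

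The promoters bear on the shared regulation that background knowledge gives these genes, so the stretches around their boxes are shown. The RefSeq promoter table of build GRCm38.p6 runs from 250 bases before to 50 bases after each gene start. Entries of 4 of the 7 genes were read, and Cd74 was left out of this look-up. The letters CTNGNAAC, a form of the X box chosen after these promoters were read, and GATTGG, the CCAAT or Y box read on its other strand, were searched on both strands. An X box followed by a Y box 10 to 30 bases later was found for H2-Aa, H2-Eb1 and H2-DMb1, and for none of the entries of H2-DMa. The same arrangement occurred in 34 of 32851 promoters (0.103%), while the X letters alone occurred in 13.2% and the Y letters alone in 16.1% of them. The H2-DMa entries, at 34122582-34122881 and 34125268-34125567, lie inside the span of that gene, which begins at 34119541. The stretch before that start was therefore not read, and the lack of a pair holds for these entries alone. The boxes, in capitals, and 20 bases on each side are printed for H2-Aa (chr17:34287847-34287927, minus strand), H2-Eb1 (chr17:34305753-34305832, plus strand) and H2-Ob (chr17:34238795-34238872, plus strand), a class II gene outside the 7, each read 5′ to 3′ along its gene.
H2-Aa: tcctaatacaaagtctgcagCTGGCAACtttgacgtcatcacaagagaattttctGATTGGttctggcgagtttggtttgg
H2-Eb1: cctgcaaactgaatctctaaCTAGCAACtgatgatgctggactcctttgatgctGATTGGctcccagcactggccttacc
H2-Ob: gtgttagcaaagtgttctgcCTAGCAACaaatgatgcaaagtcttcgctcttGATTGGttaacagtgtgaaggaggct
The gap between the boxes was 27 bases in H2-Aa, 26 in H2-Eb1 and 24 in H2-Ob, and the X box began 84, 94 and 90 bases before the gene start. In H2-DMb1 the boxes read CTAGTAAC and GATTGG, 27 bases apart. H2-Ob was 1 of 4 further class II genes with an entry and the only one of those 4 with the pair in these letters. In the others, H2-DMb2, H2-Oa and H2-Eb2, a stretch 1 letter off the X form stood before the Y letters. The count of pairs therefore depends on the form chosen. A match describes these letters alone and shows no binding.

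Class II RNA was concentrated in few cells. Leukocyte-like cells of a named class other than microglia were 837 cells, or 4.82% of all, and held 79.8% (79.6 to 80.0) of the 138666 UMIs of the 7 genes. A further 122 cells in leukocyte subclusters that received no name held 8305 of these UMIs, which brings the share of all such leukocytes to 85.8% (85.6 to 86.0). The share of the named classes was 90.5% for H2-Aa, 89.1% for H2-Ab1, 90.7% for H2-Eb1, 86.9% for Cd74 and 93.2% for Ciita, but 15.97% for H2-DMa and 23.7% for H2-DMb1. Most UMIs of the H2-M genes lay in the largest class. Microglia-like cells, 46.8% of all cells, held 78.1% (77.3 to 78.9) of the H2-DMa UMIs and 70.8% (69.7 to 71.9) of the H2-DMb1 UMIs. As CPM both genes were still higher in dendritic cell-like cells, as given below. The heat map of levels by class sets these patterns side by side.

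**Figure D1:**
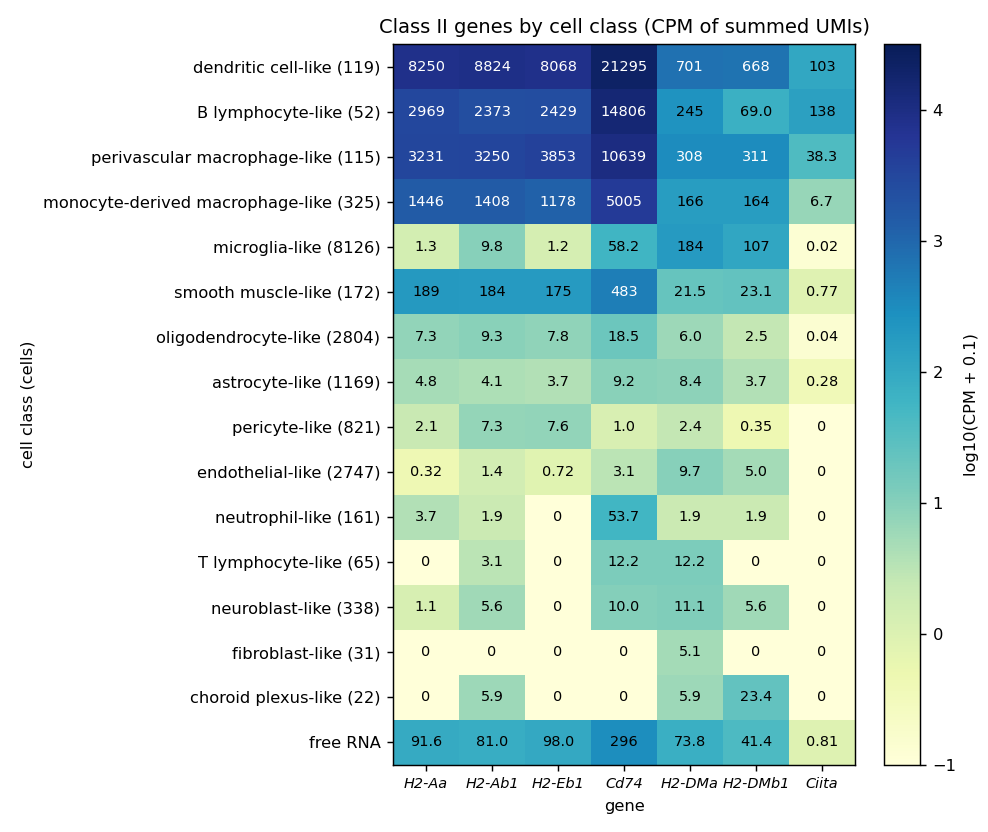
Level of each of the 7 genes (columns) in each cell class (rows, with the number of cells) as CPM of summed UMIs, printed in each field and coloured on a log10(CPM + 0.1) scale. The top 4 classes carry H2-Aa, H2-Ab1, H2-Eb1 and Cd74 at 1178 CPM or more, whereas microglia-like cells show H2-DMa at 184 CPM beside H2-Aa at 1.3 CPM; the last row is RNA outside cells.

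The classical chains were highest in dendritic cell-like cells. H2-Aa, the alpha chain of the I-A molecule, stood at 8250 CPM (8096 to 8406), H2-Ab1, the I-A beta chain, at 8824 CPM (8665 to 8985), and H2-Eb1, the beta chain of I-E, at 8068 CPM (7916 to 8223). Summed, the 3 chains reached 25142 CPM, and 96.6% of dendritic cell-like cells held at least 1 of their UMIs (92.4% after each cell was thinned to 1000 UMIs, from a median depth of 10594). By library 1 to 6 the sum was 34507, 24917, 32595, 25121, 18875 and 24476 CPM. Only libraries 4 and 6 gave over 20 such cells, and their levels were close, while libraries 1 and 5 rest on 1 cell each.

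Perivascular macrophage-like and B lymphocyte-like cells followed. H2-Aa was at 3231 CPM (3099 to 3366) in perivascular macrophage-like and at 2969 CPM (2707 to 3249) in B lymphocyte-like cells, a ratio of B over macrophage of 0.92 (0.83 to 1.02) that does not leave 1. For H2-Eb1 the same ratio was 0.63 (0.57 to 0.70), from 2429 against 3853 CPM. The place of the perivascular class rests on 1 of its subclusters, number 9, described with the macrophages: without it the summed chains fell to 0.27 (0.24 to 0.30) of the level in monocyte-derived macrophage-like cells and 0.14 (0.12 to 0.16) of that in B lymphocyte-like cells. Monocyte-derived macrophage-like cells came next, with H2-Aa at 1446 CPM (1403 to 1489), H2-Ab1 at 1408 CPM (1366 to 1451) and H2-Eb1 at 1178 CPM (1140 to 1218). Dendritic cell-like cells exceeded them 6.23-fold (6.11 to 6.37) in the summed chains, in each of the 2 libraries with at least 20 cells of both classes. The plot of levels by class and library shows how far the libraries spread.

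**Figure D2:**
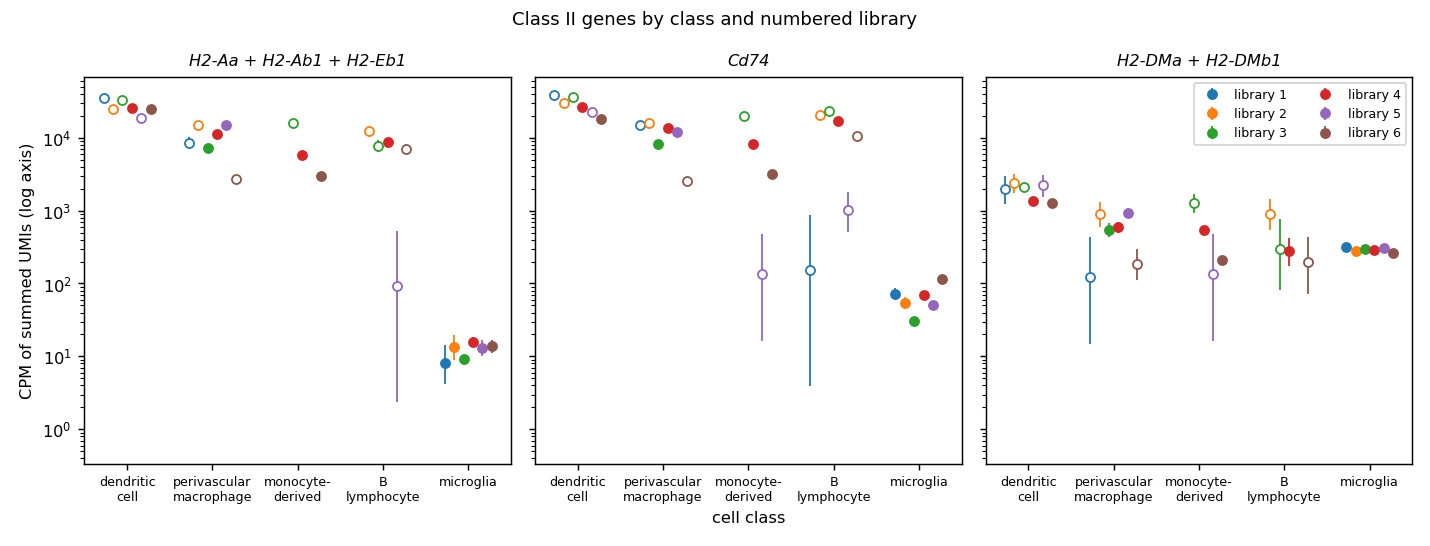
CPM of summed UMIs on a log axis for the classical chains, Cd74 and the H2-M genes, 1 point per numbered library. The classes are dendritic cell-like, perivascular macrophage-like, monocyte-derived macrophage-like, B lymphocyte-like and microglia-like cells. Open points rest on fewer than 20 cells and values of 0 are not drawn. The H2-M points of microglia-like cells sit together at 258 to 312 CPM, while the summed classical chains of monocyte-derived macrophage-like cells differ between library 4 (5816 CPM) and library 6 (2960 CPM).

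Within the macrophage-like classes class II was unevenly held. In monocyte-derived macrophage-like cells the summed chains were at 5816 CPM in library 4 (107 cells) and at 2960 CPM in library 6 (213 cells), and these libraries drew on different subclusters; library 3 had 15687 CPM in 4 cells and library 5 no classical UMI in 1 cell. Subcluster 6 of the leukocytes, marked by the monocyte genes Plac8 (3272 CPM) and Chil3 (1355 CPM), supplied 50 of the 107 cells in library 4 but 8 of the 213 in library 6, and it held 8021 CPM (7790 to 8257) of the classical chains. Its level differed between these libraries, at 8848 CPM in library 4 and 1211 CPM in the 8 cells of library 6. Subcluster 0, which expressed Arg1, an arginine-degrading enzyme of tissue macrophages, at 1281 CPM, held 3389 CPM (3300 to 3480). There the libraries were close, at 3350 CPM in library 4 and 3407 CPM in library 6. Subcluster 3, with Arg1 at 1906 CPM, held 2512 CPM (2403 to 2624). Even in subcluster 6, 24 of 63 cells had no classical UMI, against 94 of 173 in subcluster 0 and 54 of 89 in subcluster 3.

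Perivascular macrophage-like cells consisted of subclusters 4 and 9, which lay far apart in class II. Subcluster 4 (69 cells) expressed Mrc1, the mannose receptor, at 2859 CPM, Lyve1 at 923 CPM and the scavenger receptor Cd163 at 803 CPM. It held 1085 CPM (980 to 1197) of the classical chains, and 57 of its 69 cells held none. Subcluster 9 (46 cells) held 20292 CPM (19815 to 20777), and 3 of its 46 cells held none. Its perivascular markers were weaker, with Mrc1 at 398 CPM, Cd163 at 32.4 CPM and no Lyve1 UMI. Beside them stood 436 CPM of the monocyte receptor Ccr2, 495 CPM of Mgl2 and 2209 CPM of the hemoglobin gene Hbb-bs. Against the monocyte-derived subclusters 0 and 3, its Pf4 (304 CPM) and F13a1 (254 CPM) were lower. Mrc1, Cd163 and Cbr2 were higher than in both, and Ms4a7 (156 CPM) lay between them. With these marker levels the name perivascular macrophage-like holds only weakly for subcluster 9. H2-Eb1, H2-Aa, H2-Ab1 and Cd74, which took no part in the naming, led its genes. The whole class stood at 10334 CPM, and at 1085 CPM without subcluster 9. In subcluster 4 the level by library 1 to 6 was 8533, 287, 640, 1545, 486 and 16.8 CPM, where the values of libraries 1 and 2 rest on 3 cells each. In subcluster 9 it was 35637, 25266, 18705, 22577 and 7017 CPM in libraries 2 to 6, from 2, 9, 16, 15 and 4 cells. Each library with cells of both subclusters was higher in subcluster 9.

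Single cells set dendritic cell-like cells first, as the sums did, but placed B lymphocyte-like above perivascular macrophage-like cells. The median dendritic cell-like cell had 25770 CPM of the classical chains and the median B lymphocyte-like cell 7843 CPM, while the median was 0 in both macrophage-like classes. All 3 chains were found together in 109 of 119 dendritic cell-like cells, 37 of 52 B lymphocyte-like cells, 112 of 325 monocyte-derived macrophage-like cells and 48 of 115 perivascular macrophage-like cells. The bars of single-cell levels show macrophage-like cells spread from none to over 10000 CPM.

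**Figure D3:**
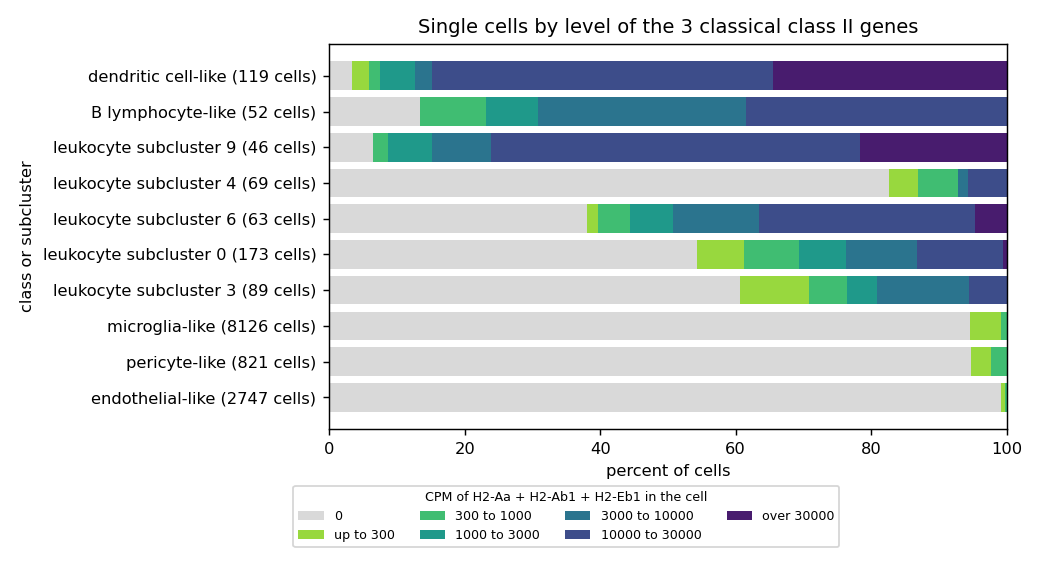
Percent of single cells (x axis) in each class or leukocyte subcluster (y axis, with the number of cells) by their own CPM of H2-Aa, H2-Ab1 and H2-Eb1 together. Subcluster 9 resembles the dendritic cell-like row, with 43 of 46 cells above 0, whereas 57 of 69 cells of subcluster 4 and nearly all microglia-like cells are at 0.

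Cd74, the invariant chain, followed the classical chains but spread more widely. It stood at 21295 CPM (21048 to 21545) in dendritic cell-like, 14806 CPM (14215 to 15416) in B lymphocyte-like, 10639 CPM (10399 to 10883) in perivascular macrophage-like and 5005 CPM (4926 to 5086) in monocyte-derived macrophage-like cells. Neighbouring classes in this order differed beyond counting error, by 1.44-fold (1.38 to 1.50) from dendritic cell-like to B lymphocyte-like cells, by 1.39-fold (1.33 to 1.46) from these to perivascular macrophage-like cells and by 2.13-fold (2.07 to 2.18) to the last class. The last step turned without subcluster 9, which held 19953 CPM of Cd74: subcluster 4 alone stood at 1988 CPM (1846 to 2139), or 0.40 (0.37 to 0.43) of the level in monocyte-derived macrophage-like cells. Across libraries 1 to 6 dendritic cell-like cells had 38787, 29435, 36373, 26709, 22514 and 18126 CPM, so the library with most of these cells was the lowest. B lymphocyte-like cells had 154, 20208, 23136, 16811, 1020 and 10461 CPM in libraries 1 to 6, from 2, 7, 5, 25, 3 and 10 cells, so the lowest values rest on the fewest cells.

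The balance of invariant to classical chains differed between classes. UMIs of different genes are captured with different success, so only the change of a ratio between classes is read here. Cd74 UMIs per classical UMI were 0.85 (0.83 to 0.86) in dendritic cell-like, 1.03 (1.00 to 1.06) in perivascular macrophage-like, 1.24 (1.21 to 1.27) in monocyte-derived macrophage-like and 1.91 (1.78 to 2.04) in B lymphocyte-like cells. Within the perivascular class it was 0.98 (0.95 to 1.02) in subcluster 9 and 1.83 (1.62 to 2.08) in subcluster 4. In microglia-like cells the ratio was 4.73 (4.32 to 5.20). The plot of the make-up of the 7 genes' UMIs shows these proportions.

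**Figure D4:**
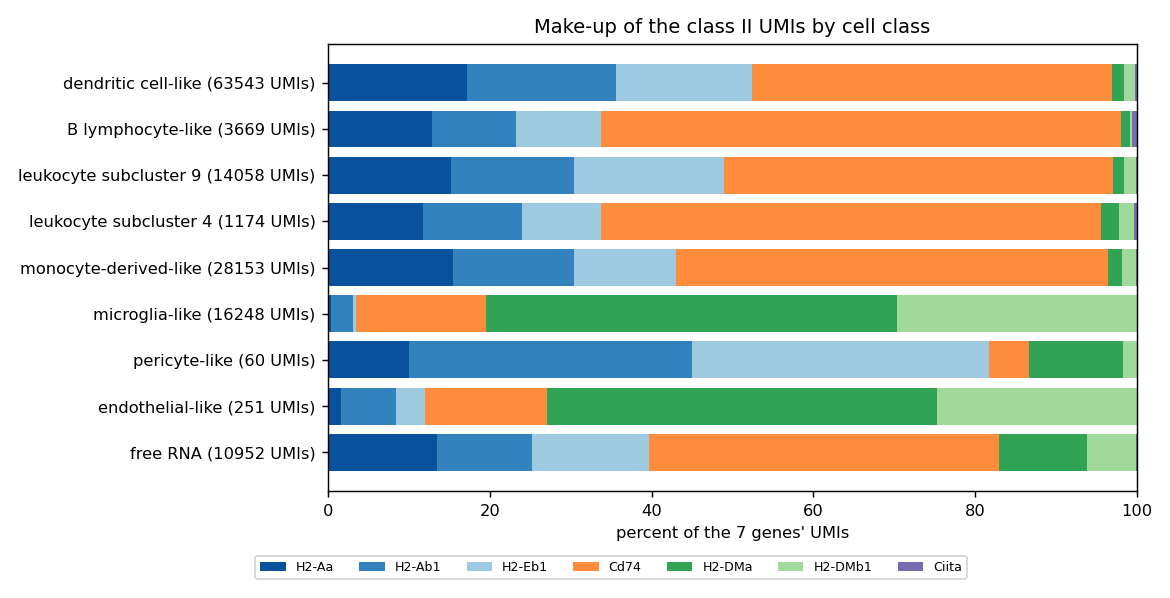
Percent of the UMIs of the 7 genes (x axis) that each gene supplies, for cell classes, 2 leukocyte subclusters and RNA outside cells (y axis, with the number of UMIs). H2-DMa and H2-DMb1 make up most of the microglia-like bar, the classical chains most of the pericyte-like bar of 60 UMIs, and Cd74 the largest piece in B lymphocyte-like cells.

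The H2-M genes had another distribution from the rest. H2-DMa, its alpha chain, was at 701 CPM (657 to 748) in dendritic cell-like and 308 CPM (269 to 352) in perivascular macrophage-like cells, but at 184 CPM (180 to 188) in microglia-like cells, level with 166 CPM (152 to 181) in monocyte-derived macrophage-like cells. The last 2 differed by a ratio of 0.90 (0.82 to 0.99), which took opposite directions in libraries 4 and 6. H2-DMb1, its beta chain, was at 668 CPM (625 to 714) in dendritic cell-like, 311 CPM (271 to 355) in perivascular macrophage-like, 164 CPM (150 to 179) in monocyte-derived macrophage-like and 107 CPM (104 to 110) in microglia-like cells. In subcluster 4 of the perivascular class H2-DMa was at 71.2 CPM (46.5 to 104) and H2-DMb1 at 60.3 CPM (37.8 to 91.2), both below microglia-like cells. B lymphocyte-like cells had H2-DMa at 245 CPM from 39 UMIs, not separated from microglia-like cells (ratio 1.33, 0.95 to 1.82). They had only 11 UMIs of H2-DMb1, or 69.0 CPM (34.5 to 123.5). Its interval does not separate this level from microglia-like cells either (ratio 0.65, 0.32 to 1.16).

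In B lymphocyte-like cells the copy H2-DMb2 outnumbered H2-DMb1. There were 0.19 (0.09 to 0.36) UMIs of H2-DMb1 for each of H2-DMb2 in this class, against 4.24 (3.64 to 4.95) in dendritic cell-like, 19.5 (17.1 to 22.2) in microglia-like and 54.7 (28.6 to 120) in monocyte-derived macrophage-like cells. H2-DMb2 was at 364 CPM in B lymphocyte-like and at 158 CPM in dendritic cell-like cells. The subunits of H2-O, which restrains H2-M, were also highest in B lymphocyte-like cells, with H2-Oa at 213 CPM and H2-Ob at 389 CPM. Microglia-like cells came after dendritic cell-like cells in H2-Oa (41.3 CPM) and in H2-Ob (21.4 CPM), against 112 and 38.5 CPM in the dendritic cell-like class.

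Ciita, the transactivator, was rare and followed the classical chains more closely than H2-M, but not in the same order of classes. Its 221 UMIs in cells were distributed with 137 in dendritic cell-like, 27 in perivascular macrophage-like, 22 in B lymphocyte-like and 20 in monocyte-derived macrophage-like cells. As levels these were 103 CPM (86.7 to 122), 38.3 CPM (25.3 to 55.8), 138 CPM (86.5 to 209) and 6.66 CPM (4.07 to 10.3). Dendritic cell-like and B lymphocyte-like cells were not separated (ratio 0.75, 0.47 to 1.23). B lymphocyte-like cells stood 3.60-fold (1.95 to 6.57) above perivascular macrophage-like cells in Ciita, but at 0.75 (0.71 to 0.80) of their classical chains. Within the perivascular class, 17 of 46 cells of subcluster 9 and 3 of 69 cells of subcluster 4 held a Ciita UMI. Monocyte-derived macrophage-like cells stood 15.5-fold (9.66 to 26.2) below dendritic cell-like cells in Ciita, against 6.23-fold in the classical chains. Of 8126 microglia-like cells 1 held a Ciita UMI, and none of 2747 endothelial-like or 821 pericyte-like cells did, which allows levels up to 0.241 and 1.04 CPM from 3 UMIs.

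Microglia-like cells carried H2-M without the chains it serves. Of these cells 67.4% had a UMI of H2-DMa or H2-DMb1 and none of the classical chains, and 23.6 (21.7 to 25.8) H2-M UMIs were counted per classical UMI, against 0.05 in dendritic cell-like cells and 0.43 (0.40 to 0.45) in RNA outside cells. H2-DMa was found in 56.4% of microglia-like cells and in 17.4% after thinning to 1000 UMIs. In endothelial-like cells, which held a summed 791 CPM of microglia markers, the shares were 2.62% and 0.44%. Median depths were 5150 UMIs for microglia-like and 4040 for endothelial-like cells. The H2-M sum was steady over libraries 1 to 6, at 312, 280, 299, 287, 311 and 258 CPM. It exceeded endothelial-like cells in 6 of 6 libraries, 19.7-fold (17.0 to 23.0) over all.

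The classical chains were sparse in microglia-like cells. H2-Aa stood at 1.29 CPM (0.98 to 1.67), H2-Eb1 at 1.22 CPM (0.92 to 1.59) and H2-Ab1 at 9.78 CPM (8.89 to 10.7), while RNA outside cells held 91.6, 98.0 and 81.0 CPM of these genes. A classical UMI was seen in 5.41% of microglia-like cells, in 1.07% after thinning, and in 0.80% and 0.11% of endothelial-like cells. No microglia-like cell held 10 classical UMIs, and 6 of 8126 held all 3 chains. H2-Ab1 outnumbered its partner H2-Aa 7.59-fold (5.76 to 10.2), with 440 against 58 UMIs, and by 11, 22, 7, 6.36, 17.7 and 6.90 in libraries 1 to 6. Libraries 1, 2 and 5 held only 12, 26 and 62 classical UMIs in these cells, so their higher values rest on few H2-Aa UMIs. The ratio of H2-Ab1 to H2-Aa was 1.07 (1.04 to 1.10) in dendritic cell-like cells. The excess was not particular to microglia-like cells. The ratio was 4.25 (1.39 to 17.4) in endothelial-like, 5.0 (1.41 to 26.9) in neuroblast-like and 3.5 (1.37 to 10.6) in pericyte-like cells. These values rest on 4, 3 and 6 H2-Aa UMIs. It was 1.27 in oligodendrocyte-like, 0.98 in smooth muscle-like and 0.86 in astrocyte-like cells. In RNA outside cells it was 0.88 (0.82 to 0.95), which differs from that in microglia-like cells.

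Cd74 in microglia-like cells varied with their cluster. Over all such cells it was at 58.2 CPM (56.0 to 60.4), in 14.1% of cells and in 3.89% after thinning, and by library 1 to 6 at 72.2, 54.1, 30.9, 69.4, 51.0 and 114 CPM. RNA outside cells in the same libraries held 96.7, 206, 171, 617, 54.1 and 518 CPM, and the part of this RNA in the microglial values was not tested. Cluster 0, led by the homeostatic genes P2ry12 and Tmem119, had Cd74 at 21.3 CPM (18.8 to 24.1). Cluster 5, led by Spp1, Lpl and Cxcl10, had 123 CPM (117 to 130), and cluster 22, led by the interferon-induced Rsad2 and Ifit3, had 136 CPM (94.5 to 189). The ratio of cluster 5 to cluster 0 was 5.79 (5.06 to 6.65), in the same direction in the 3 libraries with at least 20 cells of both. In library 3 it set 204 against 16.6 CPM, in library 4 106 against 27.7 CPM and in library 6 142 against 32.1 CPM. Cluster 5 came mostly from libraries 4 (838 cells) and 6 (576 cells), but cluster 0 mostly from library 3 (1401 cells). The pooled ratios of these clusters therefore also hold differences between libraries, and the values within a library are the closer comparison. For cluster 22 only library 3 gave at least 20 cells. Its 24 cells there held 24 Cd74 UMIs, or 174 CPM (111 to 259), against 16.6 CPM in cluster 0. Cluster 1, led by Cd83 and Ccl3, stood 2.88-fold (2.50 to 3.33) above cluster 0, in 6 of 6 libraries.

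In cluster 5 H2-M went the other way. H2-DMa was at 126 CPM (120 to 133) in cluster 5 and at 210 CPM (201 to 218) in cluster 0, a ratio of 0.60 (0.56 to 0.64). The H2-M sum was lower in cluster 5 in 3 of 3 libraries and H2-DMa in 2 of 3, the exception being library 3, whose cluster 5 holds 30 cells. In cluster 22 the H2-M sum was not separated from cluster 0, at a ratio of 1.10 (0.89 to 1.35). H2-Ab1 was at 13.9 CPM (11.8 to 16.3) in cluster 5 and at 6.4 CPM (5.04 to 8.01) in cluster 0, in the same direction in 2 of 3 libraries; in library 6 it was at 11.2 against 11.3 CPM. Among all genes 9.98% were at least 2-fold higher in cluster 5 than in cluster 0, and of the 6 of the 7 genes with 20 UMIs in both together these were Cd74, H2-Ab1 and H2-Eb1. The last rests on 15 against 8 UMIs, with a ratio of 2.08 (0.83 to 5.66) that does not leave 1 and was above 1 in 1 of 3 libraries. Of the genes tested for cluster 22 against cluster 0, 6.92% were at least 2-fold higher, Cd74 and H2-Ab1 among the 4 of the 7 genes that could be tested. In library 3, the only one with at least 20 cells of cluster 22, H2-Ab1 had 7 UMIs in that cluster. None of the 6 genes tested for cluster 5 or of the 4 tested for cluster 22 was 2-fold lower, while 12.6% and 18.4% of all tested genes were. With so few genes tested, the lack of a lower one is not read further. The levels by microglia-like cluster show Cd74 and H2-DMa converging.

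**Figure D5:**
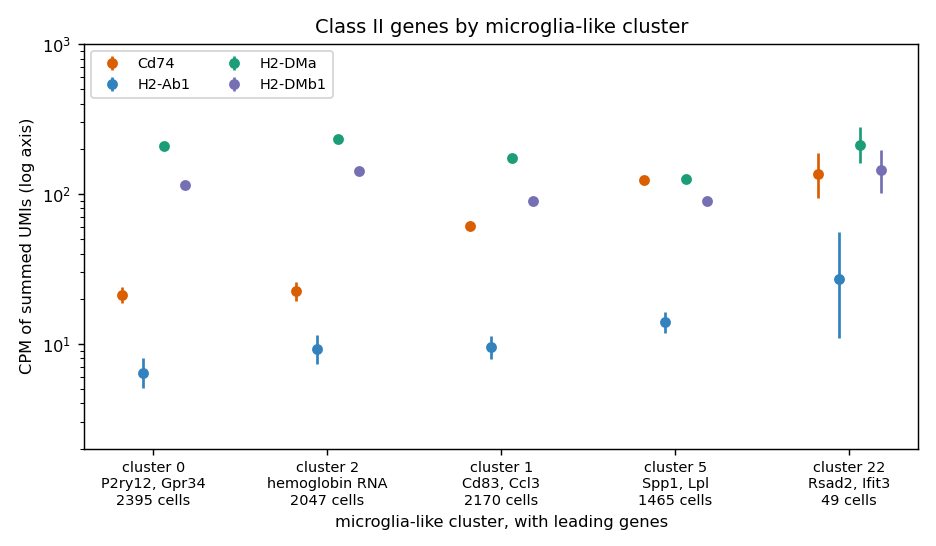
CPM of summed UMIs on a log axis for Cd74, H2-Ab1, H2-DMa and H2-DMb1 in the 5 microglia-like clusters (x axis, with leading genes and number of cells); bars are exact 95% Poisson intervals. Cd74 stands at 21.3 CPM in cluster 0 and 123 CPM in cluster 5, where H2-DMa is at 126 CPM.

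Pericyte-like cells showed a trace of classical chains that differed in make-up from the leukocytes. The 821 cells held 49 classical UMIs, 17.0 CPM (12.6 to 22.5), in 5.24% of cells and in 1.95% after thinning, at a median depth of 3291 UMIs. By library 1 to 6 these were 2, 1, 17, 20, 3 and 6 UMIs, or 8.42, 4.6, 15.4, 38.0, 9.13 and 12.8 CPM. They exceeded endothelial-like cells 7.03-fold (4.38 to 11.5), in 5 of 6 libraries, and H2-Eb1 did so 10.5-fold (4.66 to 26.0), with 22 against 9 UMIs. Cd74 did not accompany them: 3 UMIs were found, 0.06 (0.01 to 0.19) per classical UMI, against 1.09 in RNA outside cells, and 42 of the 43 pericyte-like cells with a classical UMI had no Cd74 UMI. No pericyte-like cell held more than 2 classical UMIs or all 3 chains, and H2-M was at 8 UMIs. None of the 5 B lymphocyte markers and 3 of the 8 dendritic cell markers were found in this class, the latter at 16.6 CPM summed. Of the 7 perivascular macrophage markers 1 was absent, and of the 7 monocyte-derived macrophage markers 3 were, at 18.0 and 10.7 CPM summed. All 7 microglia markers were found, at 116 CPM summed. Library 4 was the highest here, while classical RNA outside cells was highest in library 6 (643 CPM) and next in library 4 (442 CPM), and its part in these values was not tested.

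In the remaining classes a few cells decided the level. Smooth muscle-like cells had 548 CPM of classical chains, but 3 of 172 cells, with 339, 231 and 141 UMIs, held all but 1 of the 712 UMIs. Oligodendrocyte-like cells had 24.4 CPM, of which 508 of 622 UMIs lay in 1 cell of library 6 that also held 40 UMIs of dendritic cell markers, and 4.48 CPM without it. Astrocyte-like cells had 12.7 CPM, and 4.96 CPM without the cell that held 56 of 92 UMIs. Such cells were not marked as doublets by the simulation used here, and whether they joined a second cell was not tested. Endothelial-like cells had 2.41 CPM (1.63 to 3.45). Neutrophil-like cells were nearly free of classical chains, with 3 UMIs or 5.55 CPM (1.14 to 16.2), and held Cd74 at 53.7 CPM (35.9 to 77.1). All 29 of these Cd74 UMIs lay in the 81 cells of library 4, which also had the highest Cd74 level outside cells, and the 80 cells of the other libraries held none. T lymphocyte-like cells held 1 classical UMI in 65 cells, and the 31 fibroblast-like cells none, which allows up to 15.2 CPM.

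Set beside all genes, the 7 genes differed most in dendritic cell-like cells. Against microglia-like cells 10.5% of 13167 genes with at least 20 UMIs were at least 2-fold higher in dendritic cell-like cells. Ciita passed this minimum only through the classes where it is high, with 1 microglial UMI, so that its call was fixed and it is left out of these counts. All of the other 6 genes were 2-fold higher, with a median log2 ratio of 9.17, against -0.99 over all genes. In perivascular macrophage-like cells, where 9.4% of genes were 2-fold higher, 5 of the 6 were, all but H2-DMa, with a median of 7.95 against -0.58; in subcluster 4 H2-DMb1 was lower than in microglia-like cells. In monocyte-derived macrophage-like cells the background was 10% and in B lymphocyte-like cells 14.1%. In each of these classes 4 of the 6 were 2-fold higher, all but the H2-M genes, with medians of 6.80 against -1.04 and of 7.96 against -0.97. In the other direction 49.8%, 34.3%, 51.1% and 49.6% of all genes were 2-fold lower in the 4 classes and none of the 6. The ratio of dendritic cell-like to microglia-like cells ranged from 3.82 (3.56 to 4.09) for H2-DMa and 6.25 (5.81 to 6.71) for H2-DMb1 to 366 (352 to 381) for Cd74, 902 (820 to 995) for H2-Ab1 and 6601 (5067 to 8768) for H2-Eb1.

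Endothelial-like cells stood on the other side, and pericyte-like cells did so for Cd74 and the H2-M genes only. In endothelial-like cells 24.8% of genes were at least 2-fold lower than in microglia-like cells, and 5 of the 6 that could be tested were, H2-Eb1 being the exception, while 20.7% of genes and none of the 6 were higher. In pericyte-like cells 24.7% of genes were 2-fold lower, Cd74, H2-DMa and H2-DMb1 among them, and 23.9% were 2-fold higher, H2-Eb1 alone of the 6. H2-Eb1 was 6.24-fold (3.62 to 10.4) higher in pericyte-like than in microglia-like cells, in 5 of 6 libraries. The summed classical chains were 1.38-fold (1.01 to 1.85) higher there, in 3 of 6 libraries.

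The machinery around class II did not follow the 7 genes as a block. The list for antigen and invariant chain processing held 6 genes, among them March1, which encodes a ubiquitin ligase rather than a processing enzyme. Only Ifi30, a lysosomal thiol reductase, was 2-fold higher in dendritic cell-like than in microglia-like cells, at 1860 against 321 CPM. The other 5 were 2-fold lower, as were 49.8% of all genes, among them Ctss, the protease that cleaves the invariant chain, at 1210 against 5879 CPM, and Lgmn, an asparagine endopeptidase, at 77.7 against 2704 CPM. Of the 12 genes of the transcription list that could be tested, 3 were 2-fold lower in dendritic cell-like cells and 1 was higher. The lower share is below the 49.8% of all genes, and 10.5% of all genes were higher. The lower ones were Irf8, a transcription factor of the myeloid lineage, at 194 against 492 CPM, Nfya and Ifngr2. Rfx5, a subunit of the factor that binds the X box, was at 5.28 CPM in dendritic cell-like and 9.40 CPM in microglia-like cells. Among ligands and receptors that tune the T lymphocyte response, the co-stimulatory ligand Cd80 was 2-fold higher in dendritic cell-like cells, at 80.7 against 10.2 CPM, as was Cd274, which encodes the inhibitory ligand PD-L1, at 76.2 against 17.3 CPM, where 10.5% of all genes were. Cd40 was at 53.5 against 0.31 CPM and passed the minimum through its dendritic cell-like UMIs. Cd86, a ligand of CD28, was at 242 CPM in dendritic cell-like, 296 CPM in microglia-like and 379 CPM in perivascular macrophage-like cells.

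The genes most like the classical chains were sought over 50 profiles of a class in a library with at least 20 cells, among 12939 genes, by the correlation of log2(CPM + 1). H2-Ab1, H2-Eb1 and H2-Aa reached r = 0.99, 0.97 and 0.97 with their own sum, Cd74 0.92 and Ciita 0.87, whereas H2-DMb1 reached 0.74 and H2-DMa 0.69. Outside the 7 genes the closest were Tnip3 (0.85), Ms4a4c (0.82), Stap1 (0.81), Gm6377 (0.81) and Clec4b1 (0.80). For Ciita they were Clec10a (0.84), Ms4a4c (0.82), Stap1 (0.82), Clec4b1 (0.82) and Scimp (0.81). Tnip3 was at 253 CPM in dendritic cell-like, 138 CPM in perivascular macrophage-like and 2.98 CPM in microglia-like cells, but no UMI was found in B lymphocyte-like cells. These correlations describe profiles that share libraries and cell classes.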

How the data were processed

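Single-cell UMI counts of 6 libraries were deposited by the authors as 1 matrix of genes by barcodes; Cell Ranger 5.0.1 stands in the file header, mm10 in the submitters' processing notes. Depth was equalised between libraries by the authors with the aggregation step of Cell Ranger, so counts are of down-sampled reads. The labels give kit version 3 for 1 and 24 h and version 3.1 for 12 h, while the methods name version 3.1 alone. In the methods the 1 and 12 h libraries ran on a NovaSeq and the 24 h libraries on a HiSeq instrument. The 6 numbered libraries were matched to none of the 6 samples.

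All barcodes were deposited, so cells were called here: at least 200 genes, at most 10% mitochondrial UMIs and a depth of 0.1 or more relative to the 99th percentile of each library's 3000 top barcodes. Of 40769280 barcodes 22913 held 200 genes, and 17357 were kept; the study states more cells than this. Counts were log-normalised, 2000 variable genes without class II genes gave 30 components, and a graph of 20 neighbours was cut by Leiden (leidenalg 0.10.2, igraph 0.11.9, resolution 0.8); leukocytes and mural cells were cut again with 15 components. A cluster was named from fixed markers, 3 of them raised 2-fold and 1 log2 unit above the next class; these naming limits were set after the clusters were seen, the names are rebuilt, and differences from the study may come from them. Doublets were simulated (0.804 to 2.72% marked per library) and kept. RNA outside cells was summed from barcodes of 1 to 50 UMIs. Counts were summed per class as CPM with exact Poisson intervals, ratios with exact conditional intervals and shares with Clopper-Pearson intervals (scipy 1.17.1); a count of 0 allows up to 3. Genes with at least 20 UMIs in the classes compared entered counts of 2-fold differences. The 2-fold calls and the intervals of ratios and counts were tried on simulated Poisson counts, which hold no spread between cells. The cell call, clustering, naming, doublet marking and thinning were not tested in this way. Of the transcription list, 1 item is not reported here. Python 3.11.15 was used.

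The 7 genes, the pathway lists (42 genes, all in the matrix) and the 5 genes most like the classical chains or Ciita are the genes named, beside markers and leading genes. Members and lists were chosen with earlier results of these data known. Alternatives were the cell call, mitochondrial limit, resolution, doublets, class II genes in clustering, the mean over cells, the top cell and each library left out; the cells and the subcluster left out in smooth muscle-like, oligodendrocyte-like, astrocyte-like and perivascular macrophage-like classes, the H2-Ab1 to H2-Aa ratio without 1 cell, neutrophil-like Cd74 without library 4 and the share with unnamed leukocytes were chosen after seeing the data.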

Additional observations from a re-analysis of the deposited data

How the results depend on the processing

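No paired analysis was possible because the numbered libraries are matched to no sample and no test was made. The classical chains in dendritic cell-like cells were at 25445 CPM with a mitochondrial limit of 5% and at 25415 CPM with class II genes kept in the clustering, and lay between 24629 CPM (without library 3) and 26806 CPM (without library 6). In microglia-like cells they were at 13.4 CPM with a looser cell call, at 14.6 CPM with the 5% limit and also at 14.6 CPM with resolution 0.4, and between 10.8 CPM (without library 4) and 14.3 CPM (without library 3). In pericyte-like cells they lay between 12.3 CPM (without library 4) and 18.0 CPM with 1 library left out. The share of the 7 genes' UMIs in leukocyte-like cells other than microglia was 79.1% with the looser call, 80.8% with the 5% limit, 80.1% without doublets and also 80.1% with class II genes kept, and between 74.2% (without library 6) and 83.8% (without library 3). The thinned share of microglia-like cells with a classical UMI lay between 0.845% and 1.25% with 1 library left out. The ratio of Cd74 between dendritic cell-like and B lymphocyte-like cells was 1.34 with the 5% limit, 1.36 as a mean over cells, and between 1.35 (without library 5) and 1.85 (without library 6), above 1 in each of these. The cause of these shifts was not tested. Of the alternatives chosen after seeing the data, leaving out the cell richest in classical UMIs moved smooth muscle-like cells from 548 to 292 CPM, oligodendrocyte-like cells from 24.4 to 4.48 CPM and astrocyte-like cells from 12.7 to 4.96 CPM, and the H2-Ab1 to H2-Aa ratio of microglia-like cells went from 7.59 to 7.45 without its top cell. Leaving out subcluster 9, also chosen after seeing the data, moved the classical chains in perivascular macrophage-like cells from 10334 to 1085 CPM and Cd74 from 10639 to 1988 CPM. It turned the ratio of the classical chains to monocyte-derived macrophage-like cells from 2.56 to 0.27 and to B lymphocyte-like cells from 1.33 to 0.14, and the ratio of Cd74 to monocyte-derived macrophage-like cells from 2.13 to 0.40, while that of Cd74 to B lymphocyte-like cells went from 0.72 to 0.13. Cd74 in neutrophil-like cells went from 53.7 CPM to 0 without library 4, and the share of the 7 genes' UMIs from 79.8% to 85.8% with the unnamed leukocyte subclusters. Depth limits values that rest on few UMIs, such as the 221 of Ciita and the 49 classical UMIs of pericyte-like cells.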

Other observations

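Class I genes did not share the narrow distribution of class II. B2m, the light chain of class I, was at 1454 CPM in microglia-like, 1529 CPM in perivascular macrophage-like and 872 CPM in dendritic cell-like cells, and H2-K1 at 412, 687 and 864 CPM. Of the 9 class I genes 6 were at least 2-fold higher in dendritic cell-like than in microglia-like cells, among them Psmb8, an immunoproteasome subunit, at 771 against 171 CPM, and none was 2-fold lower, while 10.5% of all genes were 2-fold higher and 49.8% lower. In pericyte-like cells 7 of the 9 were 2-fold lower than in microglia-like cells, as were 24.7% of all genes, with B2m at 272 CPM.

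The receptors that read class II differed in where they were found. Cd4 was at 79.4 CPM in T lymphocyte-like and 17.0 CPM in perivascular macrophage-like cells. Lag3, an inhibitory receptor for class II, was highest in microglia-like cells at 282 CPM and in 66.7% of cells, against 11.3 CPM in dendritic cell-like cells. Cd44, a signalling partner of CD74, was at 801 CPM in neutrophil-like, 491 CPM in monocyte-derived macrophage-like and 4.3 CPM in microglia-like cells. Ifng was found in T lymphocyte-like cells at 88.5 CPM.

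Leukocyte subclusters that received no name also held class II. Subcluster 10, with Cd74 and the neutrophil gene S100a9 among its leading genes, had 5283 CPM (5077 to 5495) of the classical chains in 38 cells. Subcluster 12, led by Ccl5 and Gzma, had 3612 CPM (3361 to 3876) in 30 cells, of which 16.7% held a classical UMI. Subcluster 13, led by S100a9 and S100a8, had 3263 CPM (2987 to 3557) in 18 cells, and subcluster 11 had 574 CPM (465 to 701) in 36 cells. These levels rest on few cells. In library 3, 1 cell held all 409 classical UMIs of subcluster 10. Subcluster 13 had none in library 4. In subcluster 11, 9 of 36 cells held a classical UMI and 2 held at least 10. Of all 290 unnamed cells, leukocytes or not, 44 held a classical UMI, 19 held at least 10, and 28.6% were marked as doublets.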
